A study of Mus musculus with 8 samples.

Results

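Oxidative phosphorylation is carried out by 5 protein complexes of the inner mitochondrial membrane, and 94 of the 23413 gene symbols of the expression table carry their names. Members were taken by symbol, as every row starting with Ndufa, Ndufb, Ndufc, Ndufs, Ndufv, Sdha, Sdhb, Sdhc, Sdhd, Uqcr, Cox4, Cox5, Cox6, Cox7, Cox8 or Atp5, a rule that reads symbols and no values. Of these 94 genes, 83 encode subunits or tissue isoforms of subunits: 36 of complex I, 4 of complex II, 8 of complex III, 20 of complex IV and 15 of complex V. Another 10 encode assembly factors (8 of complex I and 2 of complex II), and 1, Atp5s, encodes a coupling factor that was kept apart. Ndufa4 and Ndufa4l2, whose names are those of complex I, were counted with complex IV, and Atp5sl, whose name is that of complex V, with the complex I assembly factors.

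Complexes I and II pass electrons from NADH and succinate to ubiquinone. Complex III hands them on to cytochrome c and complex IV to oxygen, while complexes I, III and IV pump protons out of the matrix. Complex V, the ATP synthase, lets the protons return and makes ATP. A few core subunits of complexes I, III, IV and V are encoded in the mitochondrial DNA and the others in the nucleus, and macrophages are known to shift between respiration and glycolysis with their activation state. The 13 genes of the mitochondrial DNA were not analysed here, so the members stand for the nuclear genes.

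RNA sequencing of 8 mouse libraries covered 3 groups. Repopulating microglia (n = 3) and bone-marrow macrophages (n = 3) carry the strain label DTRmg, and wild-type microglia (n = 2), the resident macrophages of the brain, carry the strain label DTR. Every sample has the same protocol text, wild type included: tamoxifen (2 mg, subcutaneous) at postnatal days 12 and 14, then 500 ng diphtheria toxin into the abdomen 3 times for microglia depletion, and flow sorting of cells from papain-digested brain. The labels give no age at sampling, do not expand the strain names and name no promoter or cell type that drives a transgene. The protocol shared by all samples names brain, while the tissue label of the macrophages reads bone-marrow macrophages, and the labels say no more on where these cells were taken. Nor do they tie replicates to animals of their own. P-values therefore measure only how far these samples spread, in part perhaps for technical reasons, and strain label and group cannot be told apart in the comparisons with wild type.

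Libraries held 5918944 to 12476427 reads counted in genes. Values are normalised counts, for which the authors scaled the reads of each gene by the size factor of its library. Microglial markers summed to 300457 to 350168 normalised counts in repopulating microglia, 96434 to 108577 in bone-marrow macrophages and 447075 to 484760 in wild-type microglia. Sall1, a transcription factor typical of microglia, stood at 9.55 to 35.8 in bone-marrow macrophages and at 1864 or more in the other groups. Replicate 3 of the repopulating microglia stood apart from replicates 1 and 2. Counts of called members that rest on this group are therefore given with and without it. Counts for genes of other pathways are given without it for repopulating against wild-type microglia alone, cytosolic ribosomal protein genes left out. In RNA from sorted bulk samples, a changed share of cells expressing a gene and changed RNA per cell cannot be told apart.

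Folds, given ± SE, were computed as differences of log2(normalised count + 1), so changes of low genes are understated. A gene was tested where at least 2 libraries reached 10 normalised counts, and called where limma's Benjamini-Hochberg adjusted p over the 11415 genes tested was under 0.05. Of the 94 members 88 were tested. The other 6 are tissue isoforms, known from lung, muscle, testis or low-oxygen cells: Cox4i2, Cox7a1, Cox7b2, Cox8b, Cox8c and Ndufa4l2. Cox7b2 and Cox8c had no read in any library. This allows up to 3 of the 65136007 reads of all libraries, counting error alone. The highest of the other 4 was Cox7a1, with 14 reads in bone-marrow macrophage replicate 1 and 1 to 7 in the other libraries. Members are short genes: their median exon length was 1087 bases, against 3303 for the tested genes. Exons of 27 members overlap those of another gene, and as the library kit does not mark strand, reads of both cannot be told apart where they overlap. Many of these genes are also known to have near-identical processed copies in the genome, and the sources used here do not say how the authors' counting treated them.

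The promoters of 5 genes are shown because their transcripts mark the patterns described below. Ndufa10 was higher in both DTRmg groups, Cox7a2l in repopulating microglia, Cox5b and Atp5k in bone-marrow macrophages, and Ndufaf7 was lower in bone-marrow macrophages. Each sequence is RefSeq's for GRCm38.p6, from 250 bases before to 50 after the annotated start, 5′ to 3′ along the gene. Capitals mark matches to the motifs named after the sequences, and 4 of the 5 windows hold none.
Ndufa10 (chr1:92473709-92474008, minus strand): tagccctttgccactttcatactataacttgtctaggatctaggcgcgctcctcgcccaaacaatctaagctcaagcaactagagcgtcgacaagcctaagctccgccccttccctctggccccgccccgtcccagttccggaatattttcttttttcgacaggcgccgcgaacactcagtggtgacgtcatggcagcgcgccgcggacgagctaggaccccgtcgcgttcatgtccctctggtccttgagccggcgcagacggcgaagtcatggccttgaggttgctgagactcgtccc
Cox7a2l (chr17:83514284-83514583, minus strand): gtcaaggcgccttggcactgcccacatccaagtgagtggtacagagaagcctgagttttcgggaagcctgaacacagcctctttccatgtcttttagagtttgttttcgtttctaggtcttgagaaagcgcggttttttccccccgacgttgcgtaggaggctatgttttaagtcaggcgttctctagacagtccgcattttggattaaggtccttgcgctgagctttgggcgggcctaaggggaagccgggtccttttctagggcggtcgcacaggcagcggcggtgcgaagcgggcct
Cox5b (chr1:36691237-36691536, plus strand): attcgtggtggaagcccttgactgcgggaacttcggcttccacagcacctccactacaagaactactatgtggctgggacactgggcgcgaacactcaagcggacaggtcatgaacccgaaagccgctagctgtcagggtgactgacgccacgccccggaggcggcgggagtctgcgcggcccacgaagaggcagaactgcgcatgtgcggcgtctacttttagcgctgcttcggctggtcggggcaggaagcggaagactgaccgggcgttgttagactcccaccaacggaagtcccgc
Atp5k (chr5:108434350-108434649, minus strand): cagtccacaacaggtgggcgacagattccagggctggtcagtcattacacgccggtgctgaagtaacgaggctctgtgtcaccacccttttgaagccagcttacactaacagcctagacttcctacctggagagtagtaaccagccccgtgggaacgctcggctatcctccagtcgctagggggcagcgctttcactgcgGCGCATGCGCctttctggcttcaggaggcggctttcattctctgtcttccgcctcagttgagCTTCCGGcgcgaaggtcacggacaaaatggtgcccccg
Ndufaf7 (chr17:78936885-78937184, plus strand): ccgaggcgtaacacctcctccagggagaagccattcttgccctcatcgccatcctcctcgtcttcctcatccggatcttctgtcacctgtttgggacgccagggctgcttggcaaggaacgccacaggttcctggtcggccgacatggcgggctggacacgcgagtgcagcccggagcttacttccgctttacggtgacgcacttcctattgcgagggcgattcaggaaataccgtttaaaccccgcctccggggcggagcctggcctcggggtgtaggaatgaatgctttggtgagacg

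Motifs of 3 factors known to act on nuclear genes of respiration were searched as exact letters on both strands of these windows. NRF1 was searched as the 10 letters that Atp5k shows in its first run of capitals, with any base in the sixth place. The ETS family, which includes GABPA, was searched as CCGGAAG, and YY1 as AANATGGCG, whose last letters can overlap the first of the NRF1 motif. Windows were found for 75 of the 94 members. The NRF1 letters stood in 19 of these (25.3%), against 5.19% of the 27025 genes with a window and 7.27% of the 16375 that are also in the expression table. ETS letters stood in 19 (25.3%), against 9.93% and 12.9%, and YY1 letters in 11 (14.7%), against 2.76% and 3.75%. Among members called higher in bone-marrow macrophages than in wild-type microglia, 3 of 24 windows held the NRF1 letters (12.5%), against 16 of the 48 windows of tested members not called higher (33.3%). The ETS letters stood in 25% and 27.1% of the same windows and the YY1 letters in 12.5% and 16.7%. These differences between called and other members were not tested. In Atp5k, the NRF1 letters begin 50 bases before the start and the ETS letters follow the start. A match is a description of the letters in this window and no evidence that a factor binds there.

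Summed over the 94 members, oxidative phosphorylation genes took 0.891%, 1.02% and 0.653% of the reads of repopulating microglia 1 to 3. Bone-marrow macrophages 1 to 3 gave them 1.13%, 1.06% and 1.13%, and wild-type microglia 1 and 2 gave 0.753% and 0.689%. All bone-marrow macrophage libraries lay above all microglial ones, and repopulating replicate 3 lay below both wild-type libraries. Cytosolic ribosomal protein genes, which are short and highly expressed like many members, followed a related order. They took 9.80%, 9.97% and 6.47% of the reads in repopulating microglia 1 to 3, 9.48%, 9.04% and 9.45% in bone-marrow macrophages, and 5.22% and 4.53% in wild-type microglia. Here replicate 3 of the repopulating microglia stayed above wild type. The part of this shift in the results for the members was not tested, beyond the removal of a trend with gene length given below.

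**Figure D1:**
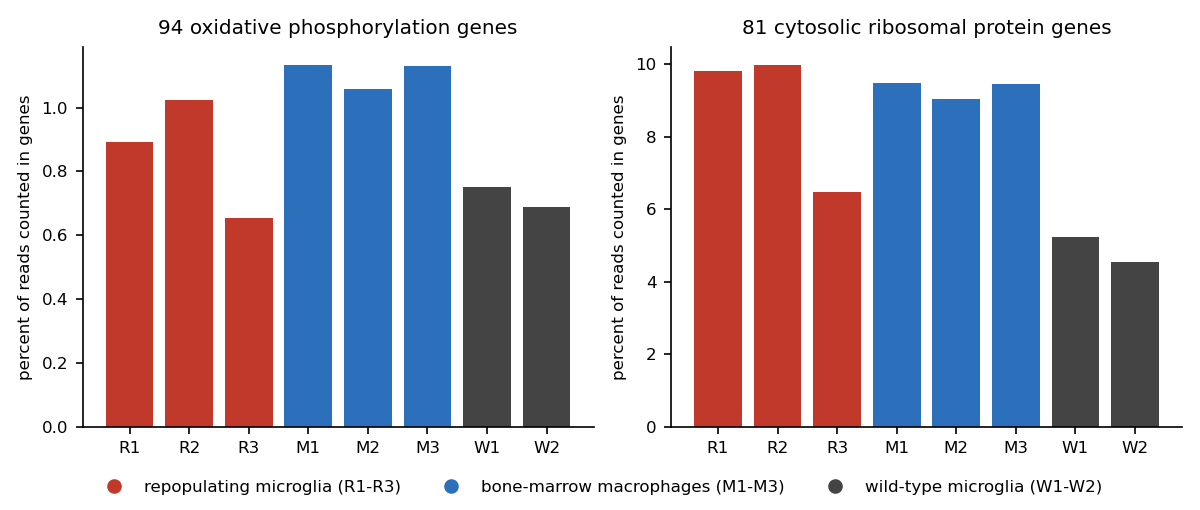
Percent of reads counted in genes (vertical axes, from 0) that fell in the 94 oxidative phosphorylation genes (left) and in the 81 cytosolic ribosomal protein genes (right), 1 bar per library. Repopulating replicate 3 (R3) holds 0.653% in the oxidative phosphorylation genes, below both wild-type libraries, and 6.47% in the ribosomal protein genes, above both.

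Levels of different genes were compared per kb of exon length. Within complex I the highest mean levels were those of Ndufa6 in repopulating microglia (1299 normalised counts per kb), Ndufa1 in bone-marrow macrophages (1263) and Ndufc2 in wild-type microglia (1111). All 3 genes encode accessory subunits. Uqcrh, the hinge protein of complex III that faces cytochrome c1, led its complex with 3258, 2092 and 1595 per kb in repopulating microglia, bone-marrow macrophages and wild-type microglia. Cox4i1, the widely expressed form of a regulatory subunit, led complex IV with 5327, 4530 and 2642 per kb in the same 3 groups. In complex V the highest was Atp5g2, a gene for subunit c of the proton-driven ring, in repopulating microglia (3597 per kb). Atp5b, the catalytic beta subunit, was the highest in bone-marrow macrophages (3722) and in wild-type microglia (2314). The lowest complex I subunit was Ndufs5, with means of 7.98, 6.53 and 7.27 normalised counts in repopulating microglia, bone-marrow macrophages and wild-type microglia and 3 to 18 reads in each library.

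The first comparison set bone-marrow macrophages against wild-type microglia. Of the 88 tested members 28 were higher in bone-marrow macrophages and 1, the assembly factor gene Ndufaf7, was lower. Over all tested genes 21.3% were called higher and 22.2% lower, so calls among the members lay on the higher side. The median log2 fold of the members was 0.45, against -0.01 over all tested genes, and 72 of 88 folds were positive. In 63 members all 3 bone-marrow macrophage libraries exceeded both wild-type libraries, where 38% of all genes did so, and in 8 all 3 lay below, where 37.8% did.

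Called higher were 9 of the 36 complex I subunits, 1 of 4 of complex II and 3 of 8 of complex III. Of complex IV 8 of 14 tested were called higher and of complex V 7 of 15. Among all tested genes 21.3% were, and the shares of complexes I and II lay near this. Median log2 folds were 0.39, 0.14, 0.36, 0.67 and 0.67 for complexes I to V. All 15 complex V members had positive folds (0.31 to 0.96) and bone-marrow macrophage values that did not overlap wild type. Of the 10 assembly factors none was called higher by limma, edgeR or DESeq2 (0 at an unadjusted limma p under 0.05), and their median log2 fold was -0.22. By role, 24 of 60 accessory subunits were called higher and 3 of the 15 core subunits, the latter near the share of all genes. Counted as core were the 7 conserved nuclear subunits of complex I, all 4 genes of complex II, Uqcrfs1 of complex III, and Atp5a1, Atp5b and Atp5c1 of complex V. No test of a difference between complexes or roles was made.

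**Figure D2:**
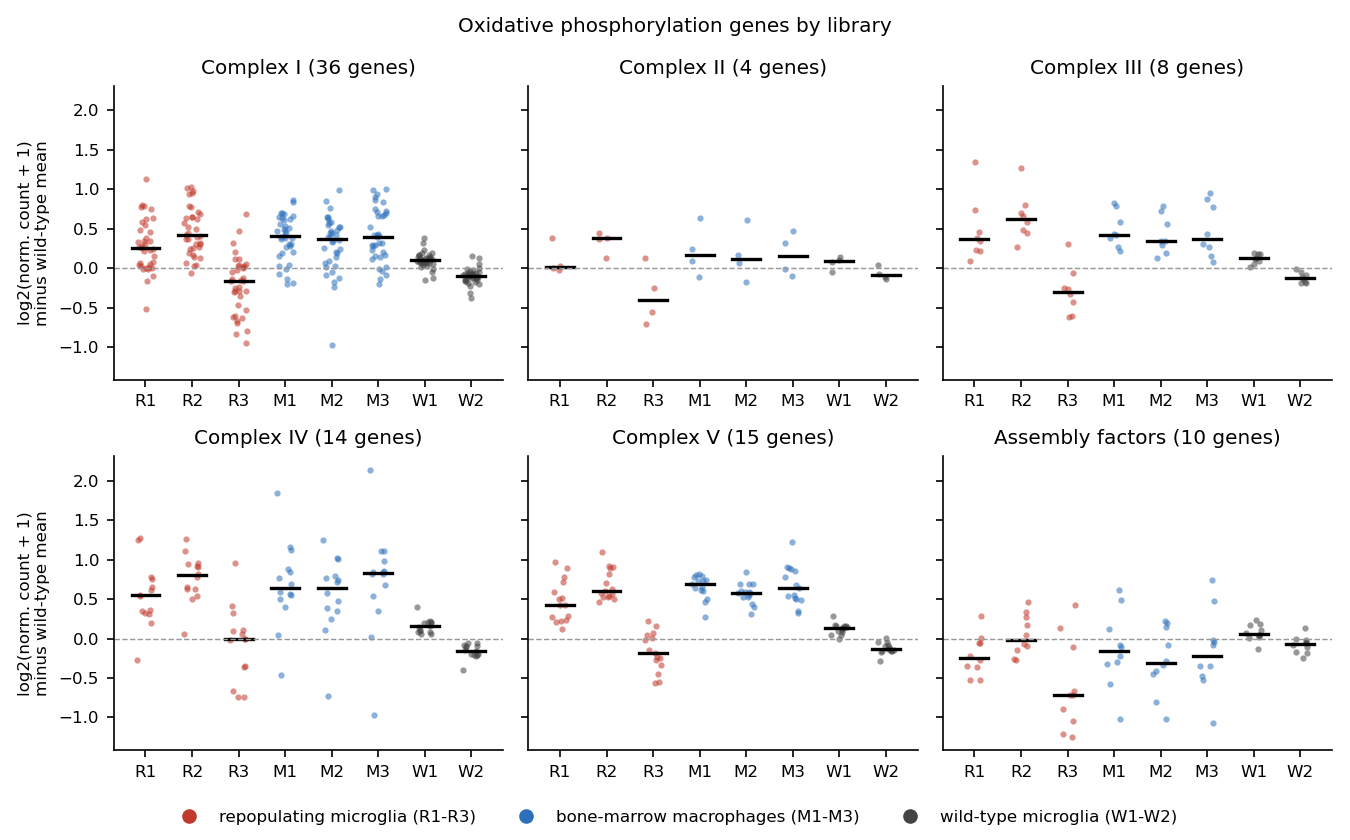
Each point is 1 tested member in 1 library, as log2(normalised count + 1) minus the mean of the wild-type libraries (vertical axis), with panels for the 5 complexes and the assembly factors and bars at the median. Atp5s is not drawn. Complex V medians sit at 0.58 to 0.69 in the 3 bone-marrow macrophage libraries (M1-M3), while the assembly factor medians there are -0.31 to -0.16 and repopulating replicate 3 (R3) lies below R1 and R2 in every panel.

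Complex I was led by Ndufa10, an accessory subunit of the membrane arm (chr1:92439010-92473860, minus strand, GRCm38). Bone-marrow macrophages 1 to 3 had 502, 546 and 552 normalised counts of it, against 265 and 285 in wild-type microglia. The groups lay far apart for their spread, with a log2 fold of 0.95 ± 0.12 (limma adjusted p = 0.000493), and the call held under all 21 settings tried. Ndufv3, a small accessory subunit of the NADH-binding module, stood at 368, 424 and 469 in bone-marrow macrophages, against 263 and 210 in wild-type microglia (log2 fold 0.83 ± 0.17, adjusted p = 0.0054). Ndufb8 followed at 0.75 ± 0.21 (adjusted p = 0.0215). The other called subunits, Ndufa2, Ndufb11, Ndufa13, Ndufb10, Ndufa12 and Ndufb7, had log2 folds of 0.53 to 0.72.

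None of the 7 core subunits of complex I was called by limma, edgeR or DESeq2, and 0 had an unadjusted limma p under 0.05. Among all tested genes limma called 21.3% higher and 22.2% lower. Ndufv1, which binds NADH and flavin, stood at 464, 470 and 486 in bone-marrow macrophages, against 564 and 504 in wild-type microglia (log2 fold -0.17 ± 0.15, adjusted p = 0.363). Ndufs1, the largest iron-sulphur subunit, stood at 477, 488 and 416 in bone-marrow macrophages, against 410 and 414 in wild-type microglia (0.16 ± 0.13, adjusted p = 0.353). Ndufs3, Ndufs7, Ndufs8 and Ndufv2 had log2 folds of -0.08 to 0.30.

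In complex II, Sdhb, the iron-sulphur subunit of succinate dehydrogenase, was the member called. It had 1024, 1012 and 916 normalised counts in bone-marrow macrophages, against 728 and 602 in wild-type microglia (log2 fold 0.57 ± 0.19, adjusted p = 0.0391). Its flavin-bearing partner Sdha was at 1969, 1864 and 2078 in bone-marrow macrophages, against 1616 and 1718 in wild-type microglia (0.24 ± 0.14, adjusted p = 0.18). The membrane anchors Sdhc and Sdhd had folds of -0.14 and 0.05.

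In complex III, 3 accessory genes were called, Uqcr10, Uqcrq and Uqcr11, with log2 folds of 0.84 ± 0.26 (adjusted p = 0.03), 0.81 ± 0.28 (0.0411) and 0.64 ± 0.21 (0.0351). Uqcr10 values were 467, 470 and 526 in bone-marrow macrophages, against 297 and 247 in wild-type microglia. The Rieske iron-sulphur protein gene Uqcrfs1 stood at 832, 878 and 771 in bone-marrow macrophages, against 781 and 614 in wild-type microglia, and its groups overlapped. The processing-peptidase-like core proteins Uqcrc1 and Uqcrc2 had folds of 0.27 and 0.16 and were not called.

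Complex IV gave the largest folds. Cox5b, a subunit on the matrix side (chr1:36691449-36693681, plus strand), gave 737, 696 and 864 normalised counts in the bone-marrow macrophages, against 462 and 346 in wild-type microglia. Its log2 fold was 0.93 ± 0.20 (adjusted p = 0.00644). Cox7b had 906, 842 and 899 in bone-marrow macrophages, against 482 and 360 in wild-type microglia (1.08 ± 0.31, adjusted p = 0.0215). Cox5a reached 1.05 ± 0.36 (adjusted p = 0.0412), Cox4i1 0.78 ± 0.27 (0.0433) and Cox7c 0.77 ± 0.25 (0.0367), while Cox6a1 and Cox6b1 both had folds of 0.58. Cox6b2, known as a testis isoform, had 27.8, 18.03 and 34.4 normalised counts in bone-marrow macrophages, against 9.62 and 5.08 in wild-type microglia (1.74 ± 0.43, adjusted p = 0.0118). Only bone-marrow macrophages reached 10 normalised counts of Cox6b2, so it was tested through the group where it is high. Its calls, though counted with the others, are no support for a difference. It was 1.29% to 1.84% of the summed level per kb of Cox6b1 and Cox6b2 in bone-marrow macrophages and 0.519% and 0.842% in wild-type microglia.

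In complex V the called genes came from the catalytic head, the stalk and the membrane part of the enzyme. The catalytic Atp5b stood at 7161, 6596 and 7636 in bone-marrow macrophages, against 4576 and 4292 in wild-type microglia (log2 fold 0.68 ± 0.16, adjusted p = 0.0103). Its partner Atp5a1, the alpha subunit, had 7134, 6676 and 6780 in bone-marrow macrophages, against 4787 and 4496 in wild-type microglia (0.56 ± 0.19, adjusted p = 0.0423). Exons of Atp5a1 overlap Haus1, which stood at 50.8 to 130 normalised counts. Atp5k, subunit e, which helps join ATP synthases in pairs (chr5:108433244-108434448, minus strand), stood at 481, 489 and 639 in bone-marrow macrophages, against 270 and 274 in wild-type microglia. Its log2 fold of 0.96 ± 0.21 was the largest of the complex (adjusted p = 0.00632). It was called in 20 of 21 settings, and with the length trend removed the fold was 0.48 and not called (adjusted p = 0.0725). Atp5j2, Atp5d, Atp5g1 and Atp5o, which encode subunits f, delta, c and the stalk protein OSCP, were called with folds of 0.73 to 0.79.

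**Figure D3:**
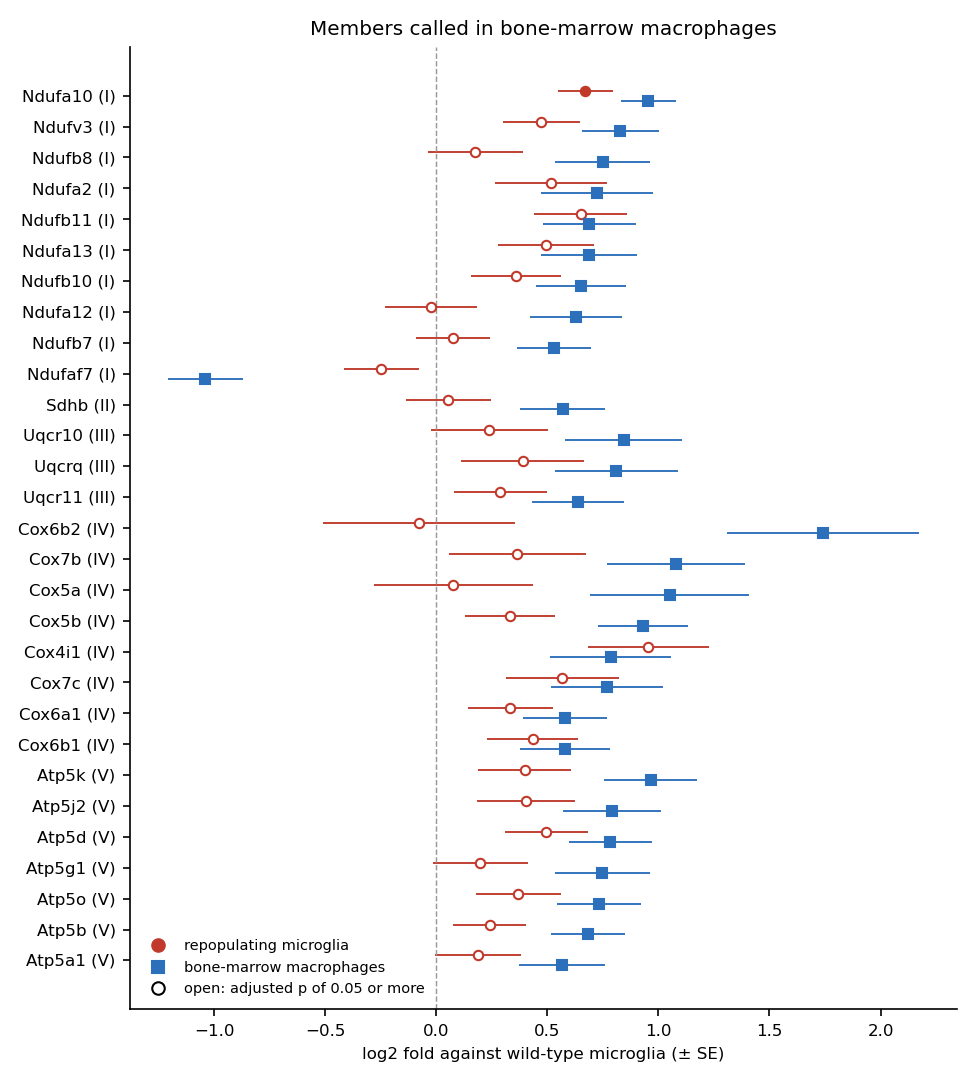
Log2 fold ± SE against wild-type microglia (horizontal axis) for the 29 members called between bone-marrow macrophages and wild-type microglia, with the complex in brackets; red circles are repopulating microglia and blue squares bone-marrow macrophages. The 28 higher members lie at 0.53 to 1.74 in bone-marrow macrophages and Ndufaf7 at -1.04, while for repopulating microglia Ndufa10 alone among them is drawn filled (adjusted p under 0.05).

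The gene that moved the other way was Ndufaf7 (chr17:78937136-78948052, plus strand), a methyltransferase needed for complex I assembly. It had 161, 161 and 156 normalised counts in bone-marrow macrophages, against 339 and 319 in wild-type microglia. The groups did not overlap, with a log2 fold of -1.04 ± 0.17 (adjusted p = 0.00155) that was called under all 21 settings. Of the other assembly factors, Ndufaf4 stood at 72.2, 61.5 and 75.0 in bone-marrow macrophages, against 122 and 95.6 in wild-type microglia (-0.63 ± 0.31, adjusted p = 0.126). Ndufaf5 had a fold of 0.53 ± 0.43 (adjusted p = 0.34), and the others lay between -0.38 and 0.39. Ndufaf3, at 92.1 to 180 normalised counts, shares exon bases with Impdh2, which stood at 485 to 1056, and Sdhaf2 does with Cpsf7.

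The number of calls in this comparison depended on the libraries in the fit. It was 57 higher without repopulating replicate 3 and 21 and 30 without replicates 1 and 2. It was 8, 13 and 6 without bone-marrow macrophage replicates 1, 2 and 3, and 7 and 2 without wild-type replicates 1 and 2, where 1 wild-type library is assumed to vary like the other groups. The median fold stayed between 0.33 and 0.57 in these fits. With each library's trend with gene length removed, 24 members were called higher and 4 lower, and the median fold was 0.24.

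Markers of other cells also differed between the groups. Summed over 8 genes of dividing cells, bone-marrow macrophages had 4938, 4078 and 4972 normalised counts, against 643 and 420 in wild-type microglia, and repopulating microglia had 553, 700 and 425. No gene of this list was at 0 in any library. The sum over 8 neutrophil genes was 1573 to 2969 in repopulating microglia and 767 to 1284 in bone-marrow macrophages, against 25330 and 27760 in wild-type microglia. Elane stood at 0 in repopulating replicates 2 and 3 and Mpo in replicate 3. The part of either in the results for the members was not tested.

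Repopulating microglia were compared with wild-type microglia next. With all libraries, 2 of the 88 tested members were called higher, Ndufa10 and Cox7a2l, and none lower, against 4.86% and 3.75% of all tested genes. At an unadjusted p under 0.05, 13 members were higher and 0 lower, while edgeR called 3 higher and 0 lower and DESeq2 7 higher and 0 lower. The median log2 fold was 0.19, against -0.02 over all tested genes, and 63 of 88 folds were positive. All 3 repopulating libraries exceeded both wild-type libraries in 13 members, where 18.5% of all genes did so. In 3 members, Ndufaf6, Ndufaf7 and Atp5s, they lay below both, where 22% did.

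Ndufa10 had the tightest values, at 429, 444 and 441 normalised counts in repopulating microglia 1 to 3, against 265 and 285 in wild-type microglia. Replicate 3 was as high as the other replicates here (log2 fold 0.67 ± 0.12, adjusted p = 0.0163). The call ended with either wild-type library left out (adjusted p = 0.158 without replicate 1 and 0.09 without replicate 2) and with bone-marrow macrophages out of the fit. Bone-marrow macrophages lay higher still, at 502 to 552, so both groups with the strain label DTRmg exceeded wild type.

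Cox7a2l, known as a factor that joins complexes III and IV into supercomplexes (chr17:83501918-83517330, minus strand), had 5912, 5344 and 3311 normalised counts in repopulating microglia 1 to 3. It had 2555, 2682 and 2505 in bone-marrow macrophages and at 2624 and 2347 in wild-type microglia. Every repopulating library lay above every other library, replicate 3 by the smallest margin. The log2 fold against wild type was 0.92 ± 0.23 (adjusted p = 0.0413), called in 11 of 21 settings with adjusted p from 1.43e-05 to 0.215. It was not called without any 1 of the other libraries (adjusted p = 0.0798 to 0.215) but was without repopulating replicate 3. The fold against bone-marrow macrophages, 0.87 ± 0.20 (adjusted p = 0.0119), was called in all 21 settings. The window printed above follows RefSeq's start, which lies inside the GENCODE span of the gene.

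Cox7a2, the related subunit, did not share this pattern. It had 623, 663 and 270 normalised counts in repopulating microglia, 642, 638 and 620 in bone-marrow macrophages, and 455 and 401 in wild-type microglia. Per kb, Cox7a2l made up 84.5%, 82.3% and 87.6% of the sum of both genes in repopulating microglia 1 to 3, 69.6%, 70.7% and 69.9% in bone-marrow macrophages, and 76.8% and 77.1% in wild-type microglia. The 3 groups do not overlap in this share, and repopulating replicate 3 is the highest.

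The 3 genes Atp5g1, Atp5g2 and Atp5g3 encode the same mature subunit c behind different import sequences. Atp5g2 stood at 2943, 3204 and 1742 normalised counts in repopulating microglia 1 to 3, at 2329, 2266 and 2171 in bone-marrow macrophages and at 1682 and 1334 in wild-type microglia. Atp5g3 stood at 1213, 1622 and 750 in repopulating microglia, 1745, 1631 and 1590 in bone-marrow macrophages, and 1216 and 1018 in wild-type microglia. Atp5g2 made up 69.2%, 64.8% and 67.9% of their summed level per kb in repopulating microglia. In bone-marrow macrophages its share was 55.2%, 56.4% and 55.5%, and in wild-type microglia 56.3% and 54.98%. All 3 repopulating libraries, replicate 3 included, lay above the other 5 libraries in this share, while bone-marrow macrophages and wild-type microglia overlapped. These shares were looked at after the levels were known and were not tested.

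**Figure D4:**
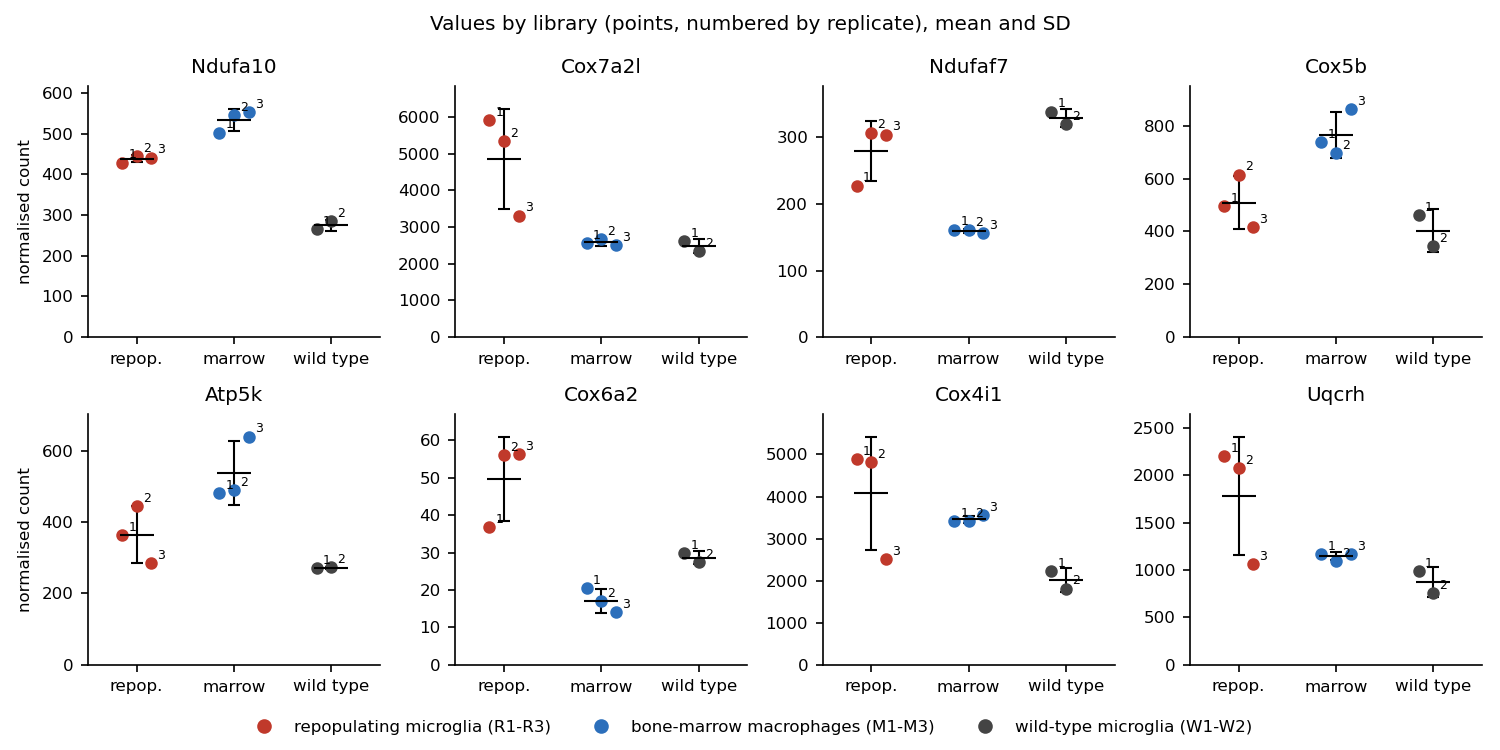
Normalised counts (vertical axes, from 0) of 8 members in every library, as points numbered by replicate within repopulating microglia, bone-marrow macrophages and wild-type microglia, with the mean and SD of each group. Ndufa10 is 429 to 444 in repopulating microglia, above 265 and 285 in wild type, while for Uqcrh and Cox4i1 repopulating replicates 1 and 2 (2203 and 2078, 4880 and 4828) sit far above replicate 3 (1065 and 2517).

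Repopulating replicate 3 stood apart from replicates 1 and 2 for these genes. It was the lowest of the 3 in 81 of 88 tested members (92%), against 43.7% of all tested genes. The median coefficient of variation of the members was 26% in repopulating microglia, 6% in bone-marrow macrophages and 11.2% in wild-type microglia, against 22.9%, 9.92% and 10.9% over all tested genes. Relative to the wild-type mean, the median member stood at 0.29, 0.52 and -0.24 on the log2 scale in repopulating replicates 1 to 3, at 0.48, 0.39 and 0.45 in bone-marrow macrophages, and at 0.11 and -0.11 in wild-type microglia. In 60 members repopulating replicates 1 and 2 both exceeded both wild-type libraries (29.9% of all genes did so), and in 51 replicate 3 lay below both (44.9% of all genes). Markers of other cells also differed between these libraries. The 8 markers of monocytes or marrow-derived macrophages summed to 8820, 14890 and 3148 normalised counts in repopulating replicates 1 to 3, 37775 to 49155 in bone-marrow macrophages, and 18022 and 14755 in wild-type microglia. Lyz2 made up most of each sum, and Ly6c2 and Plac8 did not follow it. They stood at 67.0 to 94.3 and 66.1 to 133 in bone-marrow macrophages, and at 857 or more in wild-type microglia. In neither was repopulating replicate 3 the lowest of its group. Ccr2 and F13a1 overlapped between bone-marrow macrophages and wild-type microglia. The 6 endothelial markers summed to 76.5, 170 and 442 in repopulating replicates 1 to 3, 59.1 to 80.6 in bone-marrow macrophages, and 469 and 751 in wild-type microglia. No marker of either list was at 0 in a microglial library, and their part in the result was not tested.

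Without replicate 3, 43 of the 87 members then tested were called higher in repopulating than in wild-type microglia and none lower, against 15% and 11.2% of all genes in that fit, and the median log2 fold was 0.40. Of complex I, 14 of 35 were called, of complex II 1 of 4, of complex III 5 of 8, of complex IV 10 of 14 and of complex V 13 of 15. None of the 10 assembly factors was called in either direction by limma, and 1 was higher at an unadjusted p under 0.05. With all libraries limma, edgeR and DESeq2 called none of them. Uqcrh, at 2203, 2078 and 1065 in repopulating microglia 1 to 3, 1167, 1095 and 1172 in bone-marrow macrophages, and 985 and 760 in wild-type microglia, then had a fold of 1.31 ± 0.13 (adjusted p = 2.19e-05). Cox4i1, at 4880, 4828 and 2517 in repopulating microglia, 3414, 3420 and 3561 in bone-marrow macrophages, and 2227 and 1815 in wild-type microglia, had 1.27 ± 0.12 (adjusted p = 1.22e-05). Atp5g2 had a fold of 1.04 ± 0.12 without replicate 3 (adjusted p = 8.59e-05). With all libraries none of the 3 was called: the fold was 0.97 ± 0.29 for Uqcrh (adjusted p = 0.0744), 0.96 ± 0.27 for Cox4i1 (adjusted p = 0.0641) and 0.76 ± 0.25 for Atp5g2 (adjusted p = 0.0914).

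**Figure D5:**
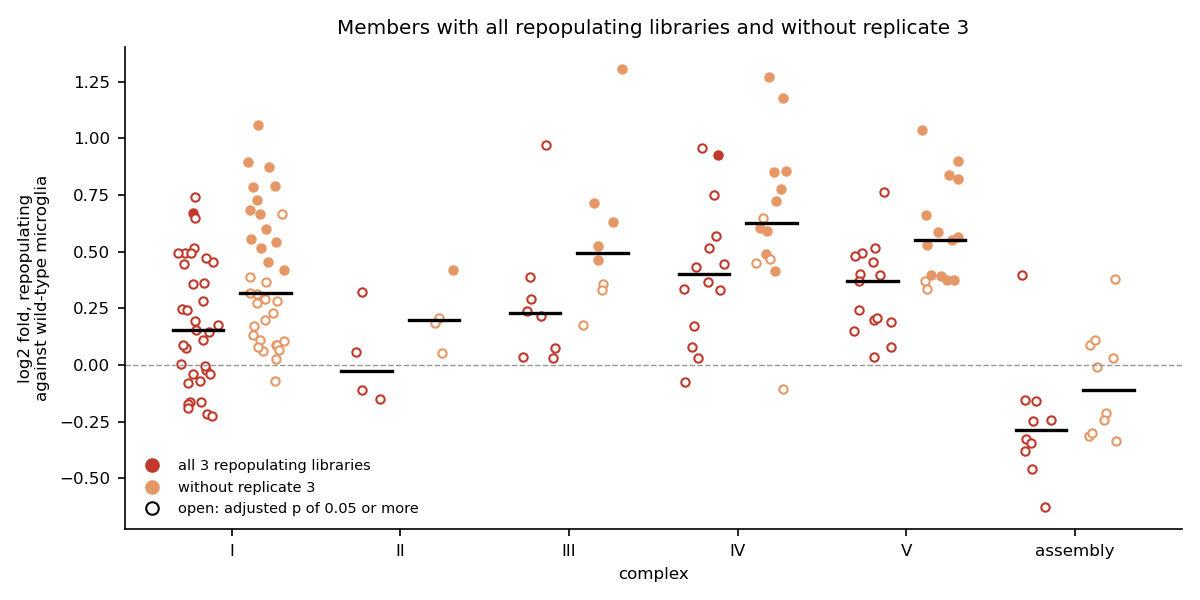
Log2 fold of each member between repopulating and wild-type microglia (vertical axis) by complex, with all 3 repopulating libraries (dark, left) and without replicate 3 (light, right); filled points have an adjusted p under 0.05 and bars mark medians over members tested both ways. Filled points are 2 with all libraries and 43 without replicate 3, none of them among the assembly factors.

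Of the 7 core subunits of complex I, limma, edgeR and DESeq2 called 0 in repopulating against wild-type microglia with all libraries, and 0 had an unadjusted limma p under 0.05. Ndufv1 stood at 475, 543 and 417 in repopulating microglia, against 564 and 504 in wild-type microglia, and Ndufs1 at 436, 452 and 427, against 410 and 414. Their log2 folds were -0.17 ± 0.15 (adjusted p = 0.502) and 0.09 ± 0.13 (adjusted p = 0.692). Sdha, at 2179, 2273 and 1823 in repopulating microglia, against 1616 and 1718 in wild-type microglia, was the complex II gene called without replicate 3 (0.42 ± 0.11, adjusted p = 0.0129). Assembly factors had a median log2 fold of -0.29 with all libraries, from -0.63 (Ndufaf4) to 0.39 (Atp5sl), and of -0.11 without replicate 3.

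Repopulating microglia were last set against bone-marrow macrophages, whose strain label, DTRmg, is the same. Called higher in repopulating microglia were 4 of 88 tested members, Cox7a2l, Cox6a2, Ndufaf7 and Atp5sl, against 16% of all tested genes. Called lower were 8, Ndufa12, Ndufb7, Sdhb, Cox5a, Cox5b, Cox6b2, Atp5k and Atp5b, against 14.9%. These 8 are all among the 28 called higher in bone-marrow macrophages than in wild-type microglia, and both comparisons share the bone-marrow macrophage libraries. The median log2 fold was -0.20, against 0.00 over all genes, and 19 of 88 folds were positive. In 4 members all repopulating libraries lay above all bone-marrow macrophage libraries (23.7% of all genes), and in 21 they lay below (22.4%).

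Leaving out repopulating replicate 3 changed these counts. Without it 11 members were called higher and 11 lower, against 23.5% and 23.6% of all genes, and the median log2 fold was 0.02. Uqcrh and Cox4i1 were then higher in repopulating microglia, by 0.90 ± 0.12 (adjusted p = 6.04e-05) and 0.49 ± 0.11 (adjusted p = 0.00258). With all libraries neither was called (Uqcrh 0.57, adjusted p = 0.131, and Cox4i1 0.17, adjusted p = 0.636). The 8 members called lower with all libraries were among the 11 called lower without replicate 3, together with Ndufb8, Ndufc1 and Cox7b. Lower calls fell to 1 when any 1 bone-marrow macrophage library or repopulating replicate 1 was left out and to 3 without either wild-type library, and numbered 17 without repopulating replicate 2. With libraries scaled to equal totals, 3 members were called higher and 32 lower, with a median fold of -0.46, but all tested genes then had a median of -0.25.

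Cox6a2, known as the heart and muscle isoform of its subunit, was low but separated the groups. It had 36.8, 56.1 and 56.4 normalised counts in repopulating microglia, 20.5, 17.0 and 14.1 in bone-marrow macrophages, and 29.9 and 27.5 in wild-type microglia. Against bone-marrow macrophages the log2 fold was 1.47 ± 0.27 (adjusted p = 0.00381), called in all 21 settings. The gene overlaps Itgad on the opposite strand, which stood at 0 to 3.05. The common form Cox6a1 made up at least 95.7% of the summed level per kb of both genes in every library. Cox6b2 went the other way, with 5.67, 7.38 and 6.91 in repopulating microglia, against 27.8, 18.03 and 34.4 in bone-marrow macrophages (-1.82 ± 0.39, adjusted p = 0.00767). As said above, it passed the filter through the bone-marrow macrophages alone, so this call is no support for a difference.

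Ndufaf7 stood at 228, 307 and 304 in repopulating microglia, against 161, 161 and 156 in bone-marrow macrophages (0.79 ± 0.15, adjusted p = 0.0045), a call that held in all 21 settings. Atp5sl, an assembly factor for the membrane arm of complex I, stood at 198, 224 and 218 in repopulating microglia and 150, 153 and 157 in bone-marrow macrophages (0.47 ± 0.14, adjusted p = 0.0282). Its wild-type values were 174 and 150. For both assembly factor genes every repopulating library lay above every bone-marrow macrophage library. Among the lower genes, Cox5b stood at 496, 615 and 417 in repopulating microglia, against 737, 696 and 864 in bone-marrow macrophages (-0.60 ± 0.18, adjusted p = 0.0348). Atp5k stood at 365, 444 and 284, against 481, 489 and 639 in bone-marrow macrophages (-0.57 ± 0.19, adjusted p = 0.048).

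Genes of neighbouring pathways were counted in the same way. Of 14 genes of the TCA cycle, which feeds NADH and succinate to complexes I and II, 6 were called higher in bone-marrow macrophages than in wild-type microglia (among them Cs, Idh3a, Idh3b, Ogdh and Mdh2), with a median log2 fold of 0.35, against 21.3% of all tested genes. In repopulating against wild-type microglia 1 of the 14 was called, against 4.86% of all genes higher and 3.75% lower. Cs, citrate synthase, which opens the cycle, had 1652, 1577 and 1622 normalised counts in the macrophages, against 1227 and 1090 in wild-type microglia (0.48 ± 0.14, adjusted p = 0.0223). Idh3a, a subunit of the NADH-forming isocitrate dehydrogenase, had 332, 431 and 303 in repopulating microglia, 557, 516 and 495 in bone-marrow macrophages, and 309 and 338 in wild-type microglia. It was higher in bone-marrow macrophages than in wild-type microglia (0.69 ± 0.17, adjusted p = 0.0115) and lower in repopulating microglia than in bone-marrow macrophages (-0.57 ± 0.15, adjusted p = 0.0218).

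Among 15 other nuclear genes for subunits, carriers and regulators of the chain, Atpif1, the inhibitor of ATP synthase hydrolysis, had 658, 843 and 559 in repopulating microglia, 1002, 983 and 1258 in bone-marrow macrophages, and 482 and 428 in wild-type microglia. Its fold in bone-marrow macrophages against wild type was 1.24 ± 0.19 (adjusted p = 0.00131), with Etfb and Gpd2 also higher and Coq10b lower. Of the 15 genes 3 were called higher and 2 lower there, against 21.3% and 22.2% of all tested genes. In repopulating against wild-type microglia 1 was called higher, and 4 without repopulating replicate 3, against 4.86% and 15% of all genes. Higd2a, a small protein linked to complex IV assembly, was highest in repopulating microglia like Cox7a2l, with 1298, 1361 and 1132 in repopulating microglia, 475, 537 and 504 in bone-marrow macrophages, and 893 and 826 in wild-type microglia. It was called in all 3 comparisons: 0.55 ± 0.13 for repopulating against wild-type microglia (adjusted p = 0.0391), -0.77 ± 0.13 for bone-marrow macrophages against wild type (0.00216) and 1.32 ± 0.12 for repopulating microglia over bone-marrow macrophages (9.56e-05).

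Assembly factors with symbols outside the prefixes were counted next. Of 31 tested, none was called in repopulating against wild-type microglia by limma or edgeR, and DESeq2 called 1 lower (limma's unadjusted p was under 0.05 for 0 higher and 4 lower), against 4.86% of all genes called higher and 3.75% lower. Without repopulating replicate 3, limma called 1 higher and 1 lower, against 15% and 11.2% of all genes in that fit. In bone-marrow macrophages against wild type 1 was lower, Taco1 (22.2% of all genes were). In repopulating microglia against bone-marrow macrophages Lrpprc was higher and Acad9 and Cox20 lower, against 16% and 14.9% of all genes. Of 18 regulators of mitochondrial biogenesis, Polg, the mitochondrial DNA polymerase, was higher in repopulating than in wild-type microglia (0.54 ± 0.14, adjusted p = 0.0462). It was the 1 called there, where 4.86% of all genes were called higher and 3.75% lower. Without repopulating replicate 3, 1 regulator was called higher and 2 lower, against 15% and 11.2% of all genes. In bone-marrow macrophages against wild type, Polg and Ppargc1b were higher and Gabpb1, Hif1a and Tfam lower, against 21.3% and 22.2% of all genes. Tfam, which packs mitochondrial DNA, stood at 294, 276 and 240 in repopulating microglia, 300.1, 291 and 220.5 in bone-marrow macrophages, and 440.2 and 405 in wild-type microglia. Of the 76 mitochondrial ribosomal protein genes, 17 were higher and 1 lower in bone-marrow macrophages than in wild-type microglia (median 0.28), against 21.3% and 22.2% of all genes. In repopulating microglia against bone-marrow macrophages 1 was higher and 13 lower (median log2 fold -0.34), against 16% and 14.9%. For repopulating against wild-type microglia limma and edgeR called none and DESeq2 2 higher, with 6 higher and 4 lower at an unadjusted limma p under 0.05 and a median log2 fold of -0.08. Without repopulating replicate 3, limma called 11 higher.

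Cytosolic ribosomal protein genes gave more calls in repopulating microglia. Of 78 tested, 32 were called higher in repopulating than in wild-type microglia, with a median log2 fold of 0.92, against 2 of 88 members with a median of 0.19. In bone-marrow macrophages against wild type the same list had 45 higher and a median of 0.79, against 28 and 0.45 for the members. No test of the difference between the lists was made, and the ribosomal list was not counted without repopulating replicate 3.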

How the data were processed

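RNA from sorted cells of 8 mouse samples was sequenced after TruSeq RNA version 2 library preparation, with RNA integrity numbers over 8, per the labels' protocols. The submitters' processing notes name the build mm10 and the tools DESeq 1.14.0, HTSeq, Bowtie2 2.1.0.0 and TopHat2 2.0.10, without roles, annotation or strand setting. The unit of the deposited values is signal: the authors scaled the reads counted per gene by 1 factor per library. The value of 1 read divided all values above 0 evenly (100%, within 0.01 reads), and reads were recovered from it. No column was left unused. The columns named mono were assigned to the bone-marrow macrophages by exclusion.

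The main test used limma 3.58.1 in R 4.3.3 on log2(value + 1), with a variance trend and 1 model of the 3 groups over all 8 libraries, without covariates. Tested were the 11415 genes that reached 10 normalised counts in 2 or more libraries, and p-values are two-sided and adjusted over all of them. Reads carried no molecular identifiers, so floors cover counting error alone. The fit was tested on simulated data with the same spread for all genes and no library set apart. Repopulating replicate 3 stands apart here, so that test does not measure the errors of the fit on these data. Alternatives were other pseudocounts, filters, scalings and fits, leaving out each library, edgeR 4.0.16 and DESeq2 1.42.0 on the recovered reads.

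Members, gene lists and markers were chosen with earlier results of these data known. Named were, in each complex, up to 3 called genes with the highest and lowest folds, the catalytic core, the paralog sets and the 2 highest genes per kb. The text gives a part of them. Some genes are not reported here. Genes named outside this rule were singled out after their values were seen, as was the Atp5g2 share. They include Ndufa6, Ndufaf4, Ndufaf5, Ndufs5, further called members and the genes of other pathways and of overlapping exons. Coordinates and exon lengths are from GENCODE vM21 on GRCm38, the assembly also called mm10, 1-based, and 92 members had 1 locus. Exons of members were matched to other genes on either strand. Promoters are RefSeq's for GRCm38.p6. A planned comparison of paralog proteins was not made. Replicates differed by more than counting noise (chi-square per degree of freedom 6.82 to 56.8) and all were kept. Plots used Python 3.11.15 with matplotlib 3.10.9.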

Additional observations from a re-analysis of the deposited data

How the results depend on the processing

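Over 21 alternative settings, of 3081 comparisons of a named gene with its main value, 187 lost a call, 118 gained one and 2775 kept their side of the threshold. Of these 2775, 2656 kept their sign and 119, called in neither fit, changed it. In 1 the sign changed with a call in one of both fits, Uqcrfs1 in repopulating microglia against bone-marrow macrophages, with a log2 fold of -0.04 with all libraries and of -0.33 to 0.38 with a library left out. Counts of called members moved by over 1.5 times as follows. For repopulating against wild-type microglia, 2 higher became 1 with no filter or no variance trend, 0 with the 2 groups alone, 8 with the length trend removed, 7 with DESeq2, and 0 to 43 with a library left out; lower calls stayed at 0 in each. For bone-marrow macrophages against wild type, 28 higher became 57 with the 2 groups alone, 16 with no variance trend and 2 to 57 with a library left out. There 1 lower became 4 with the length trend removed, 3 with the 2 groups alone, 2 with no variance trend and 1 to 3 with a library left out. For repopulating microglia against bone-marrow macrophages, 8 lower became 4 with no filter, 32 with equal totals, 14 with quantile normalisation, 3 with the 2 groups alone, 2 with no variance trend and 1 to 17 with a library left out, and 4 higher became 3 to 11. Scaling to equal totals moved that median of the members to -0.46 and that of all genes to -0.25, and moved the all-gene median to -0.13 for repopulating and 0.13 for bone-marrow macrophages against wild type. The cause of these changes was not tested. Correlations of same-numbered libraries, taken after each group's mean was removed, were -0.24 to 0.244. This removal makes the 2 wild-type libraries mirror each other, so the correlations cannot settle whether replicate numbers pair the samples. With the replicate block, 5 members were higher in repopulating than in wild-type microglia and 4 lower than in bone-marrow macrophages. The 2 wild-type libraries, and the few reads of Cox6b2 and Ndufs5, limit what could be detected.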
